A study of Saccharomyces cerevisiae with 25 samples.

Results

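The genes described here encode 10 regulators of ribosome gene transcription in budding yeast (Saccharomyces cerevisiae), chosen by name from the 6650 named genes of the data matrix. They are 5 activators (SFP1, IFH1, FHL1, RAP1 and HMO1), 4 repressors (CRF1, DOT6, TOD6 and STB3) and 1 kinase that controls several of them (SCH9). All 10 passed the filter on low values that left 5298 genes for testing. Cells of a strain in the BY4741 background, labelled delta-vip1 and pho84pr-YFP, were sampled in high-phosphate medium (0 min) and then, after a wash, every 15 min for 6 hours in medium without phosphate. VIP1 encodes an inositol pyrophosphate kinase, and pho84pr-YFP is a fluorescent reporter named for the promoter of the phosphate transporter gene PHO84. All 25 libraries share this genotype, and no strain with intact VIP1 was analysed here, so every comparison is between times in 1 strain. Each time has 1 library, and the labels name no separate cultures. For testing, the 24 libraries without phosphate were divided into an early (15 to 120 min), a middle (135 to 240 min) and a late window (255 to 360 min) of 8 libraries each.

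Growing yeast cells spend much of their transcription on ribosomes. Rap1 binds the promoters of most ribosomal protein genes, where the forkhead protein Fhl1 serves as a platform for the coactivator Ifh1 or the corepressor Crf1, which are paralogs. The zinc finger protein Sfp1 and the high-mobility-group protein Hmo1 also act at these promoters. The genes for ribosome assembly, called ribosome biogenesis genes, carry other upstream elements. These are the PAC element, bound by the paralogous repressors Dot6 and Tod6, and the RRPE, bound by Stb3. The kinase Sch9 is a direct target of TORC1, the nutrient-sensing kinase complex, and acts on Dot6, Tod6 and Stb3. Many of these proteins are known to be controlled to a large extent after transcription, by phosphorylation and by location in the cell, which RNA levels do not show.

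Levels are given in RPM, each library being scaled to a total of 1000000 reads. Depth was read back from the values as described with the processing, and lay between 413033 reads (345 min) and 4162690 reads (165 min), the median being 1417340. A gene with under 10 reads in a library has a blank there. Every library listed VIP1, at levels of 9.69 to 55.7 RPM, so these data do not show the labelled deletion, and a value per gene does not tell which part of the gene its reads cover. The strain is therefore called the strain labelled delta-vip1. Of the 4 genes missing from BY4741, HIS3, LEU2 and MET17 had a value in 0 libraries and URA3 in 8, at up to 10.3 RPM. STE2, MFA1, MFA2, BAR1 and STE6, the genes of mating type a, were listed in all 25 libraries. Of the genes of mating type alpha, MFALPHA2 was listed in 0 libraries, MFALPHA1 in 10, SAG1 in 23 and STE3 in 25, the last at up to 54.6 RPM against at least 401 RPM for STE2.

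The target genes set the frame for their regulators. Relative to 0 min, the median of 137 cytosolic ribosomal protein genes was -0.44 on the log2 scale after 180 min, -2.35 after 225 min and -3.05 after 360 min. Their share of all reads went from 33.8% at 0 min to 25.8% at 180 min, 7.88% at 225 min and 4.55% to 5.39% in the late window. Since RPM values sum to the same total in every library, the reads not taken by these genes were spread over the others. The median change of all genes tested was -0.07 (early) and 0.41 (late) against high phosphate, and 0.49 for late against early, all on the log2 scale. The changes of single regulators are read against these shifts. The median of 60 ribosome biogenesis genes followed another course, with a first low of -0.81 at 45 min, a return to -0.24 by 120 min, a second low of -2.01 at 225 min, and -0.57 and -1.20 after 300 and 360 min.

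The regulators moved in different directions while their targets went down. In the late against the early window the RNAs of FHL1, SFP1, CRF1 and STB3 rose 2-fold or more on the RPM scale. These are 2 activators and 2 repressors. A call of a rise was reached by 21.2% of all genes in that comparison. With libraries centred on their median these rises were log2 changes of 0.55 (SFP1) to 0.95 (CRF1). They were 0.50 (SFP1) to 0.93 (CRF1) without ribosomal protein genes, so none reached 2-fold under either scaling. Against high phosphate TOD6 fell in both the middle and the late window, the only call of a fall among the 9 regulators with a 0 min value. DOT6, HMO1, RAP1, IFH1 and SCH9 passed the size threshold in no comparison of windows. In RNA of a whole culture, a change in the share of cells that express a gene and a change of its RNA per cell cannot be told apart. A call needed an adjusted p under 0.05 (limma with Benjamini-Hochberg adjustment over all genes tested) and an absolute log2 change of at least 1.

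**Figure D1:**
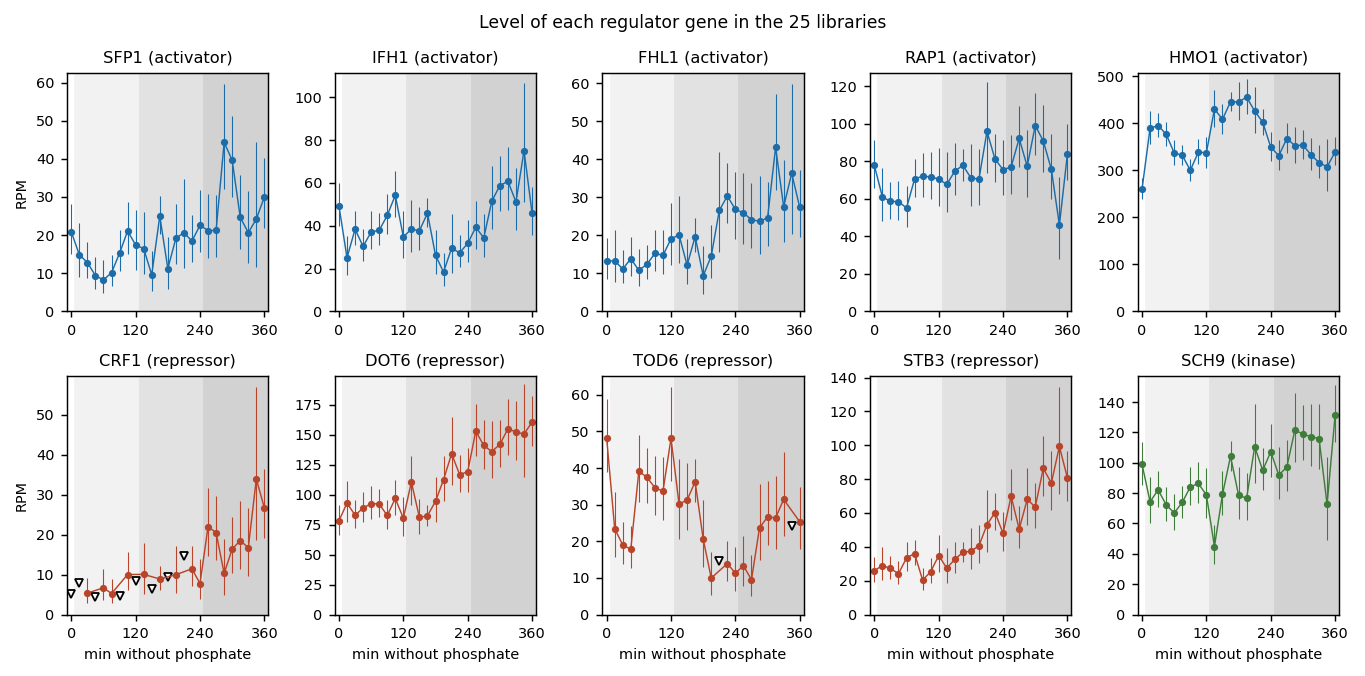
Level in RPM (linear axes, each from 0) of each of the 10 regulator genes at each time in min without phosphate, with 95% Poisson intervals that cover counting error only. Grey shades mark the early, middle and late windows, and open triangles mark blank values at the limit of 10 reads. STB3, CRF1, FHL1 and SFP1 are higher in the late window than in the early one, whereas TOD6 is lowest between 195 and 270 min.

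Against the 0 min library, 0 of the 9 regulators with a 0 min value were called in the early window by limma, where 0.0765% of all genes were called higher and 0.0382% lower. At an unadjusted p under 0.05 there was 1, HMO1, which was higher, as were 189 of the 5230 genes, while 240 were lower. In the middle window 1 of 9 was called, TOD6, which was lower. Among all genes 6.33% were called higher and 4.46% lower there. In the late window FHL1 and STB3 were called higher and TOD6 lower, against 21.1% of all genes called higher and 6.85% called lower. These contrasts rest on the single library at 0 min, which has no replicate. CRF1 was blank at 0 min, below 5.08 RPM, and had no such contrast.

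Between the late and the early window, which has 8 libraries on each side, 4 of 10 regulators were called higher (FHL1, SFP1, CRF1 and STB3) and 0 lower. Of all genes 21.2% were called higher and 4.66% lower, which is 1125 and 247 genes, against 425 higher and 516 lower with libraries centred on their median. At an unadjusted p under 0.05, 8 regulators were higher and 1, TOD6, was lower, against 3519 and 764 of the 5298 genes. The median log2 change of the 10 was 0.64, against 0.49 for all genes tested. With libraries centred on their own median, 0 of the 10 were called, the 4 called genes having log2 changes of 0.55 (SFP1), 0.59 (FHL1), 0.95 (CRF1) and 0.86 (STB3). When levels were taken per 1000000 reads outside the ribosomal protein genes, 1 was called, TOD6, which was lower by a log2 change of -1.08, and those 4 genes had changes of 0.50, 0.55, 0.93 and 0.81. Of the 5298 genes 387 were called higher and 551 lower under that scaling. The 4 rises thus kept their direction under both scalings but not their size. The joint test for any change over the 24 libraries without phosphate needed a fitted range of at least 1 on the log2 scale. It called 6 of 10 regulators (SFP1, IFH1, FHL1, CRF1, TOD6 and STB3) and 42% of all genes. With centred libraries and without ribosomal protein genes it called 4 (IFH1, CRF1, TOD6 and STB3), and 1671 and 1644 of the 5298 genes.

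**Figure D2:**
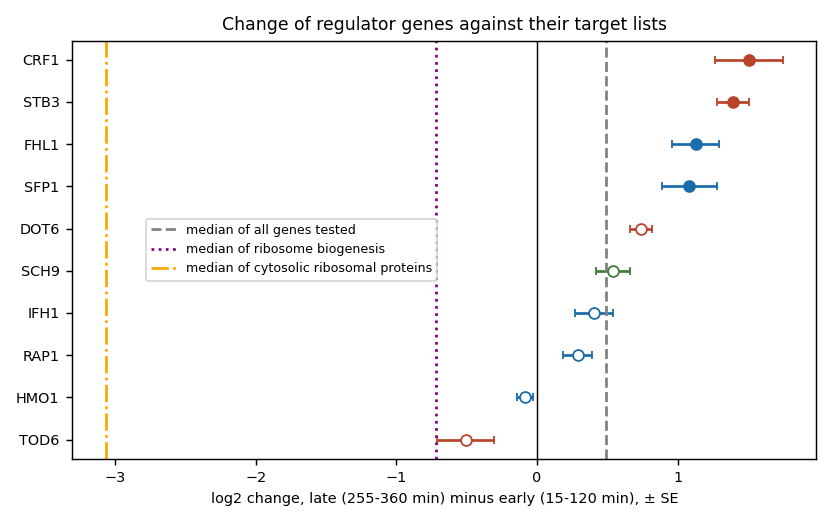
Log2 change from the early to the late window for each regulator gene, with the SE of the limma fit, where filled points passed the threshold and open points did not. Vertical lines give the median of all genes tested (0.49), of ribosome biogenesis genes (-0.72) and of ribosomal protein genes (-3.06), and 5 of the 10 genes lie to the right of the line for all genes by more than 1 SE.

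TOD6 (YBL054W, chromosome II, 117589 to 119166, plus strand, R64) encodes a Myb-like repressor that binds PAC and recruits the histone deacetylase complex Rpd3L. Its level was 48.3 RPM in high phosphate, and after 15 and 45 min without phosphate it was 23.5 and 17.9 RPM. It then stood between 30.2 and 48.1 RPM from 60 to 165 min. From 195 to 270 min it was listed at 9.51 to 13.9 RPM, with a blank at 210 min (below 14.7 RPM), and from 285 min at 23.7 to 31.5 RPM, with a blank at 345 min (below 24.2 RPM). The course therefore had 2 low phases, at 15 to 45 min and at 195 to 270 min, with higher values between and after them. The lowest values rest on few reads, 13 at 195 min and 13 at 270 min. The middle window lay below 0 min by a log2 change of -1.36 (SE 0.43, limma adjusted p = 0.0203), and the late window by -1.17 (SE 0.43, adjusted p = 0.0247). The second of these calls was lost without the 360 min library, where the change was -0.87. The early and late windows, with ranges of 17.9 to 48.1 and 9.51 to 31.5 RPM, overlapped, and their log2 difference of -0.51 (SE 0.20, adjusted p = 0.0244) did not reach the size threshold.

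The course of TOD6 was close to that of the ribosome biogenesis genes. Each library was centred on its median, and TOD6 was compared with the median course of the 60 ribosome biogenesis genes. The Pearson correlation was 0.90 over 23 libraries. Among the other regulators it was highest for IFH1 (0.57) and HMO1 (0.42) and lowest for DOT6 (-0.64) and STB3 (-0.71), each over 25 libraries. These correlations are descriptions over libraries that follow each other in time. Among the 4326 genes listed in every library, those most like TOD6 were BUD20 (r = 0.94), PNO1 (r = 0.93) and MAK16 (r = 0.93). All of these encode factors for ribosome assembly. MAK16 is in the list of 60, while PNO1 and BUD20 are not.

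The same upstream elements stand before TOD6 and these genes. They also stand before SCH9, whose correlation with the ribosome biogenesis median was 0.08 over 25 libraries. In the 500 bases before the start codon, searched on both strands, TOD6 had 4 matches to PAC (GATGAG) and 1 to the core of the RRPE (AAAATTTT). Of 6019 genes with a full window, 28.2% had a PAC match, 12.4% an RRPE core match and 5.96% both. Of the 60 ribosome biogenesis genes, 93.3%, 83.3% and 76.7% did. As many PAC matches as in TOD6 were found before 15 of the 6019 genes (0.249%). The stretches below are from the R64 genome, written 5′ to 3′ on the strand of the gene, with RRPE core and PAC matches in capitals (CTCATC is PAC on the other strand). They are shown because TOD6 and the 3 genes most like it have an RRPE core with PAC downstream of it, and those of TOD6, PNO1 and MAK16 are printed. The TOD6 stretch is chrII:117293-117386 (plus strand, 296 to 203 bases before the start codon), that of PNO1 is chrXV:606260-606312 (minus strand, 141 to 89 bases before it) and that of MAK16 is chrI:101258-101285 (minus strand, 140 to 113 bases before it). The stretch of TOD6 holds 3 of its 4 PAC matches. A match is a run of letters and does not show binding.
TOD6: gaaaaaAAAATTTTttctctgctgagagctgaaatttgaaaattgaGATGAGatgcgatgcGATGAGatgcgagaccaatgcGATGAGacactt
PNO1: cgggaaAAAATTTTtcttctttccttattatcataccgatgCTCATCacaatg
MAK16: ttttgaAAAATTTTccGATGAGcttttg

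**Figure D3:**
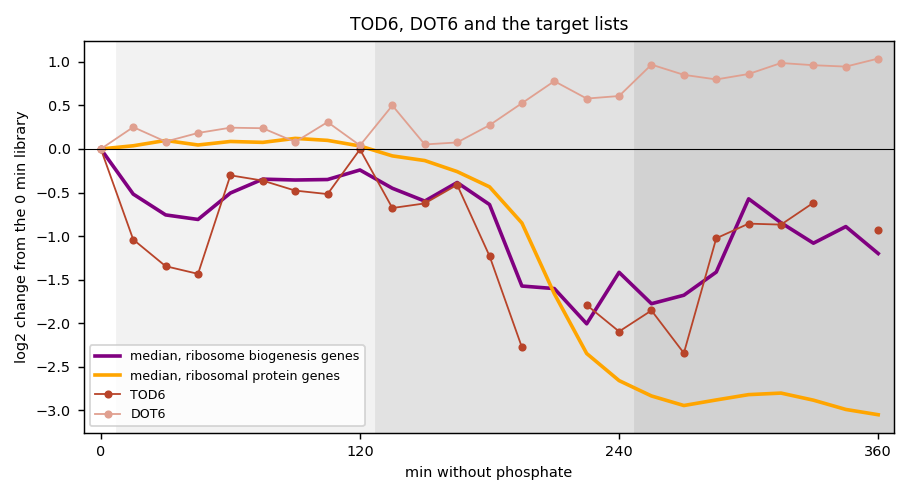
Log2 change from the 0 min library by time in min without phosphate for TOD6, for DOT6 and for the median of the 60 ribosome biogenesis and the 137 ribosomal protein genes, with gaps where TOD6 is blank. TOD6 and the ribosome biogenesis median are both low at 45 min (-1.43 and -0.81) and at 270 min (-2.34 and -1.68), times at which DOT6 stands at 0.19 and 0.85.

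**Figure D4:**
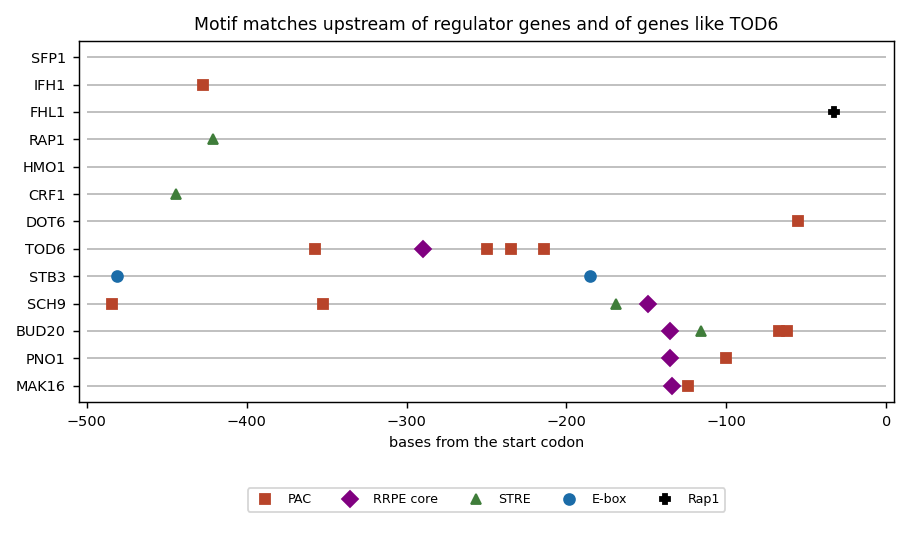
Positions of matches to 5 short motifs, in bases before the start codon, for the 10 regulator genes and the 3 genes most like TOD6. TOD6 carries 4 PAC matches and an RRPE core, SCH9 carries 2 and an RRPE core, and the other regulators carry 0 or 1 PAC match.

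DOT6 (YER088C, chromosome V, 333176 to 335188, minus strand), the paralog of TOD6, had its highest values late. Its level was 78.2 RPM at 0 min, 80.5 to 96.9 RPM in the early window (median 90.6), 81.1 to 134 RPM in the middle (median 112) and 136 to 161 RPM in the late window (median 152). All 8 late libraries lay above all 8 early ones, as they did for FHL1, CRF1 and STB3 among the regulators and for 36.1% of all genes, while for 6.51% of all genes all lay below. The log2 change of DOT6 from early to late was 0.74 (SE 0.08, limma adjusted p = 6.69e-10), below the size threshold, and 0.21 with libraries centred on their median. The genes most like DOT6 were ROM1 (r = 0.82), AKL1 (r = 0.81) and APP1 (r = 0.78).

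The ratio of the paralogs within a library does not depend on how libraries are scaled. It is a ratio of RPM not divided by gene length, which shifts it by the same amount in every library. In RPM, DOT6 exceeded TOD6 by 0.70 on the log2 scale at 0 min, while per kilobase they stood at 38.9 and 30.6. The mean log2 ratio was 1.56 ± 0.54 (SD, n = 8) in the early and 2.83 ± 0.62 (SD, n = 7) in the late window, where the 345 min library had no TOD6 value. The early values ran from 0.74 to 2.31 and the late ones from 2.28 to 3.89, so that the windows overlapped only at their edges. The difference of 1.27 had a two-sided exact permutation p of 0.000622, or 0.00124 adjusted over the 2 pairs of paralogs. Libraries of successive times are not exchangeable replicates, and these p-values measure only the spread among them.

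STB3 (YDR169C, chromosome IV, 792348 to 793889, minus strand), whose product binds the RRPE, had the smallest adjusted p of the 10 regulators for late against early. Its level was 25.9 RPM at 0 min, 20.3 to 36.0 RPM in the early window (median 28.1), 27.4 to 60.2 RPM in the middle (median 39.0) and 50.5 to 99.3 RPM in the late window (median 73.8). The early and late ranges did not overlap. The log2 change was 1.39 (SE 0.11, adjusted p = 4.63e-12) for late against early and 1.50 (SE 0.25, adjusted p = 1.43e-05) for late against high phosphate. Late against early was 0.86 with centred libraries and 0.81 without ribosomal protein genes, both under the size threshold. The call against high phosphate was lost without ribosomal protein genes, at 0.97. From 210 min on it stayed past the midpoint between the early and late medians, and the ribosomal protein median was then at -1.66. With centred libraries the first of 3 consecutive times past the midpoint was 285 min. The genes most like STB3 were YCL048W-A (r = 0.89), RRT1 (r = 0.89) and GTT1 (r = 0.88). Upstream of STB3 there were 2 matches to CACGTG, the letters bound by Pho4, the activator of phosphate starvation genes, and by Cbf1, which 6.21% of all genes have.

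CRF1 (YDR223W, chromosome IV, 912099 to 913502, plus strand), the corepressor that takes the place of Ifh1 on Fhl1, had the most blanks of the 10. It was listed in 4 of 8 early libraries at 5.25 to 10.0 RPM, in 5 of 8 middle libraries at 7.76 to 11.4 RPM, and in all 8 late libraries at 10.3 to 33.9 RPM (median 19.5). The limits in the blank early libraries were 4.47 to 8.29 RPM. No listed early value reached the late ones. The log2 change from early to late was 1.51 (SE 0.24, adjusted p = 5.72e-06), from 10 to 40 reads in each late library. That change was 0.95 with centred libraries and 0.93 without ribosomal protein genes, both under the size threshold. Its first of 3 consecutive times past the midpoint of its windows was 300 min, the latest among the 4 regulators that rose. With 2 consecutive times it was 255 min, again the latest of the 4. The run from 255 min was broken at 285 min by a value of 10.3 RPM, at the limit of 10 reads. Genes most like it, over 17 libraries, were YLR426W (r = 0.81), CDC34 (r = 0.80) and PEX27 (r = 0.78).

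IFH1 (YLR223C, chromosome XII, 582233 to 585490, minus strand), the coactivator, had its lowest window median in the middle window. Its level was 49.3 RPM at 0 min, 25.0 to 54.2 RPM in the early window (median 37.5), 18.4 to 45.9 RPM in the middle (median 30.6) and 34.4 to 75.1 RPM in the late window (median 51.3). The lowest value was at 195 min, when TOD6 was also low and when the ribosome biogenesis median reached -1.57. IFH1 changed over time (fitted range 1.23 on the log2 scale, limma adjusted p = 4.45e-05), the fit being lowest at 15 min and highest at 360 min. Its late against early difference of 0.41 (SE 0.13, limma adjusted p = 0.00717) was below the size threshold. That difference turned to -0.13 with centred libraries and to -0.17 without ribosomal protein genes. The row most like IFH1 was YLR222C-A (r = 0.99), whose systematic number adjoins that of IFH1 and which has no entry in the annotation used here. Whether the rows share reads was not tested. BUD20 (r = 0.79) and RBA50 (r = 0.79) came next, and BUD20 was thus among the 3 genes most like both IFH1 and TOD6.

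The balance of coactivator to corepressor RNA shifted within libraries. The mean log2 ratio of IFH1 to CRF1 was 2.65 ± 0.23 (SD, n = 4) in the early libraries with both values and 1.38 ± 0.58 (SD, n = 8) in the late window. These are ratios of RPM not divided by length, and IFH1 (3258 bases) is longer than CRF1 (1404 bases). They therefore show the shift but not which RNA was more abundant. Per kilobase the late medians were 15.8 for IFH1 and 13.9 for CRF1. Each of these 4 early values, of at least 2.44, lay above every late one, of at most 2.32. The difference of -1.27 had a two-sided exact permutation p of 0.00404, also 0.00404 adjusted over the 2 pairs. The 4 early libraries with CRF1 blank do not enter, and a blank gives only a lower limit of the ratio. At 15 min IFH1 was at 25.0 RPM and CRF1 below 7.82 RPM, so the full early window may overlap the late one.

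**Figure D5:**
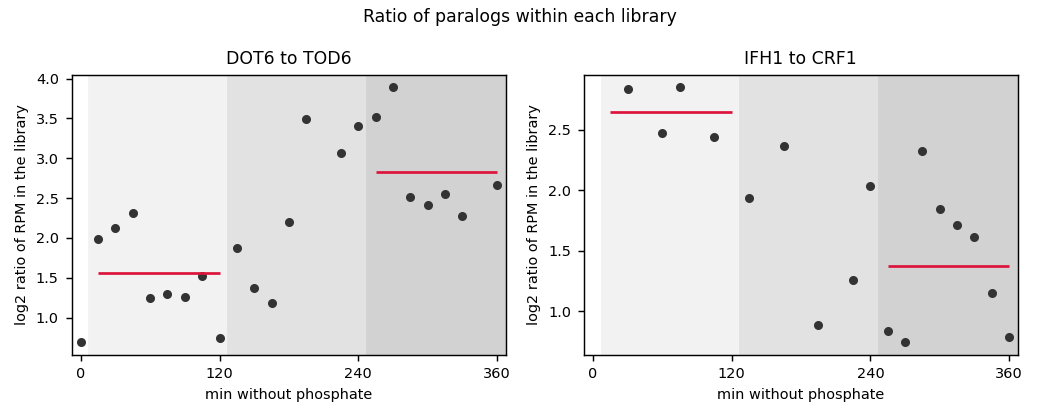
Log2 ratio of RPM within each library of DOT6 to TOD6 and of IFH1 to CRF1, by time in min without phosphate (axes do not start at 0), with red lines at the means of the early and late windows. The first ratio goes from a mean of 1.56 to 2.83, and the second from 2.65 to 1.38. Neither is divided by gene length.

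FHL1 (YPR104C, chromosome XVI, 733623 to 736433, minus strand), the platform for both, rose. Its level was 13.2 RPM at 0 min, 10.8 to 19.1 RPM in the early window (median 13.6), 9.36 to 30.4 RPM in the middle (median 19.9) and 23.7 to 43.2 RPM in the late window (median 26.6). The values were at or above 23.7 RPM from 210 min on, and the early and late windows did not overlap. The log2 change was 1.13 (SE 0.17, limma adjusted p = 6.56e-07) for late against early and 1.16 (SE 0.37, limma adjusted p = 0.0107) for late against high phosphate. Both calls were lost with centred libraries and without ribosomal protein genes, where late against early was 0.59 and 0.55. The call against high phosphate was also lost with alternate time points from 30 min. FHL1 was the only regulator of the 10 with a match to a Rap1 motif (ACCCANNCA) upstream, which 5.96% of all genes and 39.4% of the ribosomal protein genes have. The genes most like FHL1 were ERG5 (r = 0.77), YBR201C-A (r = 0.75) and CTP1 (r = 0.74).

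SFP1 (YLR403W, chromosome XII, 925568 to 927619, plus strand), the zinc finger activator, changed over time (fitted range 1.37 on the log2 scale, limma adjusted p = 0.000341). That call was lost with centred libraries and without ribosomal protein genes, and over all alternatives the fitted range went down to 0.80. The 0 min level of 20.8 RPM compares with 8.24 RPM after 60 min and 21.1 RPM after 105 min. The early window ran from 8.24 to 21.1 RPM (median 13.8), the middle from 9.58 to 25.0 RPM (median 18.8) and the late window from 20.6 to 44.3 RPM (median 24.4), with the 2 highest values at 285 and 300 min (44.3 and 39.6 RPM). The early and late windows overlapped at their edges. Late against early the log2 change was 1.08 (SE 0.19, adjusted p = 1.16e-05), but late against high phosphate it was 0.38 (SE 0.43, adjusted p = 0.48). Without the 60 min or the 285 min library SFP1 was no longer called late against early, the change over all single omissions being 0.99 to 1.20. ALR1 (r = 0.69), DAL81 (r = 0.64) and RNR4 (r = 0.61) were the genes most like it.

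RAP1 (YNL216W, chromosome XIV, 241689 to 244172, plus strand), the general binding factor of these promoters, was called in no comparison. Its level was 77.7 RPM at 0 min, 55.1 to 72.1 RPM in the early window (median 65.8), 67.6 to 95.9 RPM in the middle (median 75.1) and 46.0 to 99.0 RPM in the late window (median 80.7). The early and late windows overlapped through the 345 min library (46.0 RPM, 19 reads), since the next lowest late value was 75.7 RPM. The late against early log2 change of 0.29 (SE 0.10, adjusted p = 0.0114) turned to -0.25 with centred libraries and to -0.29 without ribosomal protein genes. YMD8 (r = 0.88), HAC1 (r = 0.87) and TRP4 (r = 0.85) were most like it.

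HMO1 (YDR174W, chromosome IV, 812110 to 812850, plus strand), which binds DNA at ribosomal DNA and ribosomal protein genes, was the most abundant regulator. It stood at 260 RPM at 0 min, below all 24 later libraries. The early window ran from 300.3 to 395 RPM (median 338), the middle from 349 to 456 RPM (median 428) and the late window from 307 to 368 RPM (median 336). The log2 difference of the middle window from 0 min was 0.68 (SE 0.12, adjusted p = 0.000237), below the size threshold, and late against early differed by -0.09 (SE 0.06, adjusted p = 0.16). With centred libraries the latter was -0.62, also under the threshold. HMO1 had a correlation of 0.79 with the ribosomal protein median over 25 centred libraries, but of 0.19 with the log2 share of ribosomal protein reads when libraries were not centred. TRR1 (r = 0.90), OYE2 (r = 0.90) and YLR179C (r = 0.90) were most like it.

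SCH9 (YHR205W, chromosome VIII, 509363 to 511837, plus strand), the kinase, was at 99.1 RPM at 0 min, at 66.9 to 86.4 RPM in the early window (median 76.6), at 44.8 to 111 RPM in the middle (median 87.1) and at 72.6 to 131 RPM in the late window (median 117). The early and late windows overlapped through the 345 min library (72.6 RPM, 30 reads), since the next lowest late value was 91.9 RPM. The late against early change of 0.54 (SE 0.12, adjusted p = 0.00023) was close to the shift of all genes, at 0.01 with centred libraries and -0.04 without ribosomal protein genes. Upstream of SCH9 there were 2 PAC matches, 1 RRPE core and 1 match to the stress element AGGGG, which 34.0% of all genes have. UTH1 (r = 0.79), SML1 (r = 0.75) and CWP2 (r = 0.75) were most like it.

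Levels of different genes can be compared only per length. In RPM per kilobase of coding sequence at 0 min, HMO1 was highest at 351, followed by SCH9 (40.0), DOT6 (38.9), RAP1 (31.3), TOD6 (30.6), STB3 (16.8), IFH1 (15.1), SFP1 (10.2) and FHL1 (4.70), each from 1 library. In the late window the medians were 454 for HMO1, 75.3 for DOT6, 47.8 for STB3, 47.1 for SCH9, 32.5 for RAP1, 16.1 for TOD6, 15.8 for IFH1, 13.9 for CRF1, 11.9 for SFP1 and 9.47 for FHL1. Among neighbours in this late order, the ranges over libraries were separate only between HMO1 and DOT6 and between DOT6 and STB3. TOD6 and STB3 thus stood at 30.6 and 16.8 at 0 min and at 16.1 and 47.8 late.

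The partners and upstream kinases of these regulators were read from lists, with log2 changes for late against early, a comparison in which 21.2% of all genes were called higher. The shares called higher were 20% for TORC1 and EGO, 16.7% for the phosphatase branch and 15.4% for promoter factors. They were 25% for SEACIT and PIB2 and 12.5% for the polymerase regulators. Each of these shares rests on 1 or 2 called genes, too few to set it apart from that background. Of 11 genes of the protein kinase A pathway and Yak1, 7 rose and 0 fell, among them BCY1, the regulatory subunit (1.29, SE 0.08, adjusted p = 3.46e-15), and MSN4, a stress activator that the kinase keeps out of the nucleus (2.18, SE 0.19, adjusted p = 4.51e-11). The count of 7 became 2 with centred libraries and 1 without ribosomal protein genes. MSN4 kept its call under both other scalings, while BCY1 was under the size threshold in both. Of 10 genes of TORC1 and the EGO complex, which activates it at the vacuole, GTR1 (1.54) and SLM4 (1.05) rose and GTR2, at 0.93, was under the size threshold. With centred libraries only GTR1 of these 10 passed, and 0 did without ribosomal protein genes. Of the SEACIT complex, which inhibits TORC1, and PIB2, NPR3 passed (1.03), while PIB2 was at 0.77 and NPR2 at 0.79, and 0 of these 4 passed under either other scaling.

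The phosphatase branch below TORC1 had 2 of 12 genes called higher, TIP41 (1.66) and RTS1 (1.07), with TAP42 at 0.64. TIP41, whose product binds Tap42, kept its call under both other scalings. Of 11 tested genes of Rpd3L, the deacetylase that Dot6, Tod6 and Stb3 recruit, 0 were called by limma and 9 were higher at an unadjusted p under 0.05, a threshold that 3519 of all 5298 genes passed in that direction. ASH1 (0.95), RPD3 (0.82) and SIN3 (0.67) had the largest moderated t. Of 6 partners of Ifh1 in the CURI complex, which holds Ifh1 away from promoters and processes ribosomal RNA, UTP22 fell by 1.70 (SE 0.15, adjusted p = 1.33e-11), while CKB2 was at 0.49 and CKB1 at 0.26. Of 13 genes for the acetyltransferase NuA4 and other promoter factors, GCR1 (1.42) and CBF1 (2.37) rose, with ESA1 at 0.99, and CBF1 alone passed under both other scalings. Of 8 tested regulators of RNA polymerases I and III, MAF1, the repressor of polymerase III, rose (2.19, SE 0.12, adjusted p = 3.24e-16) under every scaling. RRN3, which recruits polymerase I, was at -0.66, and RRN5 at 0.80. RRN3 was called lower under both other scalings, at -1.15 with centred libraries.

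The target lists went down under every scaling. Of the 137 ribosomal protein genes 136 fell late against early (median -3.06), with RPL9A at -3.80, RPS12 at -3.07 and RPL16B at -3.17. Of the 60 ribosome biogenesis genes 20 fell and 0 rose (median -0.72), with NOP56 at -1.37, GAR1 at -1.39 and CBF5 at -1.20, all of them parts of small nucleolar ribonucleoproteins. With centred libraries the count was 43 of 60, and without ribosomal protein genes it was 45. Of all 5298 genes, 247 were called lower on the RPM scale, 516 with centred libraries and 551 without ribosomal protein genes. Against high phosphate 39 of the 60 fell in the middle and 40 in the late window, the windows in which TOD6 fell as well. Among all genes 4.46% and 6.85% were called lower in those windows.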

How the data were processed

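RNA of 25 libraries, 1 per time, was sequenced on an Illumina instrument per the labels' protocols. The submitters' processing notes name Bowtie and R64. The sources used here do not give the counting program or the strand setting. The authors deposited log2 values whose antilogs sum to 1000000 in each library (RPM). Taking the lowest value of a library as 10 reads made 94.1% of all values whole numbers of reads within 0.01, as were 238 of 240 values of the 10 regulators. Values below 10 reads are blank and were left missing. Of 6701 rows, 51 without a gene name held no value. Testing required a value in 13 or more libraries and in 3 or more of the 8 per window. This kept 5298 genes, and 5230 of them had a 0 min value.

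The deposited log2 values were fitted with limma 3.58.1 (R 4.3.3, variance trend), with 1 term for high phosphate and 4 natural spline terms for the time without phosphate, leaving 19 residual degrees of freedom. SE is the standard error of the fitted contrast, and adjusted p-values are Benjamini-Hochberg values over all genes tested. P-values measure the scatter around the spline, which may be technical. Ratios of paralogs were compared with exact two-sided permutation tests. Correlations are Pearson's r over values centred on the library median. The procedure was tested on simulated data. These had independent counts and no common fall of ribosomal protein genes, so that test does not cover the shift of RPM or dependence between successive times. The regulators, the lists, the windows and the rule for named genes were chosen with earlier results of these data known. Named are all 10 regulators, the 3 genes of each list with the largest absolute moderated t late against early, and the 3 genes most like each regulator. A gene that this rule names is not reported here. URA3 and the mating type genes were read as strain checks. Alternatives were other spline flexibilities, scalings, weights, filters, window means, a smaller size threshold, and omission of time points. Figures were drawn with matplotlib 3.10.9 in Python 3.11.15.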

Additional observations from a re-analysis of the deposited data

Results flagged for a closer look

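In 30 groups of 8 libraries (10 genes in 3 windows, fewer libraries where a gene is blank), 3 held a library that stood apart from its group by Dixon's gap ratio, and chance flags about 1 group in 20. RAP1 at 345 min was at 46.0 RPM, from 19 reads in the shallowest library, and the next lowest late value was 75.7 RPM (gap ratio 0.649). HMO1 at 240 min was at 349 RPM, from 495 reads, with 403 RPM as the next value of the middle window (gap ratio 0.534). SCH9 at 135 min was at 44.8 RPM, from 49 reads, with 76.6 RPM as the next (gap ratio 0.594). The part of depth in these values was not tested.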

How the results depend on the processing

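The number of regulators called late against early, 4, was 0 with libraries centred on their median and 1 (TOD6, lower) per 1000000 reads outside ribosomal protein genes. With alternate time points from 15 min it was 2 (FHL1 and STB3), but CRF1 failed the filter there and was not tested. Late against high phosphate, 3 became 1 (TOD6) without ribosomal protein genes. It became 2 (TOD6 and STB3) with centred libraries and with alternate time points from 30 min. In the middle window, 1 became 0 with plain window means and 3 (HMO1, TOD6 and STB3) with a minimum log2 change of 0.58. Both other scalings lower the late levels of every gene by construction relative to the early ones, taking for example the change of SFP1 from 1.08 to 0.55 and 0.50. The cause of the other changes was not tested. The late call of TOD6 against high phosphate was also lost with plain window means and with alternate time points from 15 min. The time past the midpoint moved to 90 min for SFP1 and to 285 min for STB3 with centred libraries. With 2 consecutive times in place of 3 it moved to 120 min for FHL1 and to 255 min for CRF1. Neither ratio of paralogs lost its call when 1 library was left out, with differences of 1.10 to 1.38 for DOT6 to TOD6 and -1.41 to -1.18 for IFH1 to CRF1. No paired analysis was possible because each time has 1 library. Genes at 10 to 40 reads, such as CRF1, are limited by counting error.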
